A study of Mus musculus with 14 samples.

Results

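The 500 widest Brg1 peaks of EBF1-deficient mouse fetal liver progenitors given back wild-type (wt) EBF1, called domains here, were chosen by the width of the peak interval alone, out of the 29354 wt peaks on chromosomes 1 to 19, X and Y. They made up 1.70% of the wt peaks and 6.55% of the bases under them. Their widths ran between 3859 and 14920 bp, with a median of 4579.5 bp, against 1103 bp over all wt peaks. The last members taken were nearest Sec11c (3867 bp), Tex44 (3865 bp) and Larp1 (3859 bp), and the first peaks left out were nearest Tec (3855 bp), Myo1g (3853 bp) and H2bc4 (3852 bp). Width in the wt list chose the members, so it is given as a description and supports nothing.

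Brg1, the product of Smarca4, is the motor subunit of SWI/SNF-type remodellers, which in mammals are called BAF and PBAF and use ATP to slide or evict nucleosomes. EBF1 is a DNA-binding factor that B-cell progenitors need in order to reach the pro-B stage, and it works there with Tcf3, Ikzf1 and Pax5. Wide stretches of a remodeller or of active chromatin often lie over clustered enhancers and over strongly transcribed genes.

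The study measured Brg1 by ChIP-seq, in which DNA bound by a protein is precipitated with an antibody and sequenced, and peaks are the intervals called as enriched. Fetal liver c-kit+ progenitors of EBF1 -/- C57BL/6 embryos of day 16 to 18 received a retrovirus and grew for 14 to 20 days on OP9 stroma. The virus carried GFP and EBF1 dC, which lacks the C-terminal domain, EBF1 dPLD, which lacks residues 480 to 520, EBF1 F-GATA3, whose C-terminal domain was exchanged for the TA1 domain of GATA3, EBF1 wt, or GFP alone (empty vector). All 5 groups therefore lacked the endogenous gene and carried a virus. The labels place F-GATA3 and wt cells at the pro-B stage, dC and dPLD cells in a partial block before it, and empty-vector cells in a block before it, so EBF1 version and stage cannot be told apart. Brg1 and EBF1 were also precipitated from pro-B cells that the Abelson virus (A-MuLV) had transformed, made from EBF1 fl/fl fetal liver, in which dC or wt EBF1 replaced the endogenous protein. EBF1 binding was thus measured in A-MuLV cells and not in the fetal liver cells. Peaks do not measure expression, so the labelled stages could not be checked by marker levels.

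Every group had 1 library. Differences between groups therefore have no replicate check and no test, and the 95% intervals in parentheses, exact Clopper-Pearson throughout, cover counting error alone and describe libraries rather than conditions. Sequencing depth is unknown for peak lists, so a site with no peak is not shown to lack Brg1. The 5 fetal liver lists held between 17687 peaks (empty vector) and 30301 peaks (dC), and none of their peaks had a −log10 q below 10.0. The A-MuLV Brg1 lists stand apart: their peaks were narrow, with medians of 348 bp in dC and 381 bp in wt, reached down to a −log10 q of 1.33 in dC and 1.37 in wt, and came from a protocol with 1% in place of 2% formaldehyde. Positions are those of GRCm38, the build named in the submitters' processing notes (also as mm10).

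The sequences that follow belong to the widest autosomal domain, which holds the Mir142 hairpin of blood cells, and to 3 B-lineage domains, whose 4 promoters can be set beside the EBF1 peaks nearby. The 3 mature miRNAs of the Mir142 domain are shown with the seed, bases 2 to 8, in capitals. The 4 promoters run over 250 bases before and 50 after the RefSeq start and are shown with matches to the EBF1 core CCCNNGGG in capitals. All are 5′ to 3′ and come from RefSeq on GRCm38.p6.
mmu-miR-142a-5p, chr11:87756867-87756887, plus strand: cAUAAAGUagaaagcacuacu
mmu-miR-142a-3p, chr11:87756903-87756925, plus strand: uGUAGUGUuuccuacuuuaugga
mmu-miR-142b, chr11:87756906-87756925, minus strand: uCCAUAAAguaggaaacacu
Igll1 promoter, chr16:16863936-16864235, minus strand: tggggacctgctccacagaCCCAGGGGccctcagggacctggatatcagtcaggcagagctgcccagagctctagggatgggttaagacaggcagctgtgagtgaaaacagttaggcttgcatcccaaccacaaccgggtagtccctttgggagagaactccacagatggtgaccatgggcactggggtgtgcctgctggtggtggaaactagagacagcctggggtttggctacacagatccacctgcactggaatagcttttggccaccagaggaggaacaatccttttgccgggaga
Vpreb1 promoter, chr16:16869206-16869505, minus strand: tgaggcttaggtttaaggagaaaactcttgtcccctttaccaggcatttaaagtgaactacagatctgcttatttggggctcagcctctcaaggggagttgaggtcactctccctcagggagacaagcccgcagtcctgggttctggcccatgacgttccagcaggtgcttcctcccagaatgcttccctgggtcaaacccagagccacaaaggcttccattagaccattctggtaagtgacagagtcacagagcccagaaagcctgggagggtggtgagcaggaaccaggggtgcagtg
Pou2af1 promoter, chr9:51213440-51213739, plus strand: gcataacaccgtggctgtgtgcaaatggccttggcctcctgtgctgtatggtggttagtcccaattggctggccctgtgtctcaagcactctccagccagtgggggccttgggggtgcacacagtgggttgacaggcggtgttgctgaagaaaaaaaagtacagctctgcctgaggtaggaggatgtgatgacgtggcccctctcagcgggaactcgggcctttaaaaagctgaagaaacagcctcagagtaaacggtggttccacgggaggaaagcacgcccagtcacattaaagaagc
Pax5 promoter, chr4:44710645-44710944, minus strand: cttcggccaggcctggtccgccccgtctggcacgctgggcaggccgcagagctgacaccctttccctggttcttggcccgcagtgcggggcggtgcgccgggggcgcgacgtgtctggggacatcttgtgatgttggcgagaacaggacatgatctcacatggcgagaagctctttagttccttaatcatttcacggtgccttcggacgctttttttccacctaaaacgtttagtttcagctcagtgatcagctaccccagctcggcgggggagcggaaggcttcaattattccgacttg

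No pair of the 3 miRNAs shares a seed, and miR-142b is read from the opposite strand of the same hairpin locus. Of the 4 promoters, that of Igll1 holds 1 match to the EBF1 core, and those of Vpreb1, Pou2af1 and Pax5 hold none. The nearest EBF1 wt summit of A-MuLV cells lay 219 bp from the Igll1 start, 143 bp from the Vpreb1 start, 475 bp from the Pou2af1 start and 4521 bp from the Pax5 start. A match of letters is a description and not a binding site, and its lack says only that those letters are not in the window.

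A domain lay within 10 kb of 11 of 32 B-lineage, 5 of 16 BAF and PBAF subunit and 4 of 14 ubiquitously expressed genes. The share of all protein-coding genes was 2.88%. Of 57 histone genes 35 overlapped a domain, against 2.08% of all protein-coding genes. The summit fell inside a protein-coding gene in 256 domains (51.2%, against 57.2% of all wt peaks), within 10 kb outside a gene in 168, at 10 to 50 kb in 53 and farther away in 23. The domains had 458 different nearest genes, of which 33 had 2 domains, and Erg had 4, Bcar3 3, Irf2bp2 3 and Ptma 3. Of all 21887 protein-coding genes in the RefSeq table, 631 had a domain within 10 kb (2.88%), and 13758 had some wt peak there (62.9%). The domains' own fold enrichment at the summit, the authors' ratio of ChIP pileup to local background, had a median of 12.5 and a range of 1.55 to 31.3, against a median of 7.20 over all wt peaks.

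Of 32 B-lineage genes, 11 had a domain within 10 kb, and all 32 had some wt peak. Among the 11 were Igll1 and Vpreb1, which encode the surrogate light chain, Cd79b, which encodes a signalling chain of the B-cell receptor, Pou2af1, a coactivator of Oct factors, the transcription factor genes Pax5, Ikzf1, Tcf3, Lef1 and Bach2, and Cd24a, a surface protein of B-cell precursors. The 11 genes fell to 10 domains. Among 16 BAF and PBAF subunit genes 5 had a domain (Smarca4, Smarca2, Arid1a, Arid1b and Arid2), as had 4 of 14 ubiquitously expressed genes, among them Actb, Tubb5 and Ywhaz. Of 14 progenitor genes, 1, Erg, had a domain. No domain lay within 10 kb of any of the 14 myeloid, 16 T-lineage, 11 stromal, 12 NK and innate lymphoid or 10 megakaryocyte and erythroid genes. Of these, 10, 13, 1, 7 and 8 had some wt peak. Over all protein-coding genes 2.88% had a domain and 62.9% some wt peak. None at a domain in a list of 10 to 16 genes is near that share, so it does not set these lists apart. No test of these lists was made, since they were chosen with results of these data known.

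The same lists set against the 500 widest peaks of the empty-vector library gave 4 B-lineage genes (Cd79a, Blk, Bach2 and Tcf3), 2 BAF subunit genes (Arid1a and Arid2) and the same 4 ubiquitously expressed genes. For the wt domains 631 protein-coding genes lay within 10 kb, against 672 for the widest empty-vector peaks. Bach2 and Tcf3 were the B-lineage genes found on both sides. The 500 widest empty-vector peaks also lay near 2 myeloid genes (Cebpa and Fcgr3), 1 innate lymphoid gene (Il2rb) and Runx1 of the progenitor list.

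Among the 15 widest domains, 3 lay at the ends of the sex chromosomes, in sequence that X and Y share: 14920 and 12661 bp on Y nearest Gm52481 and 12438 bp on X nearest Mid1. Reads from such copies cannot be assigned to a single place, and how the authors handled them is not given in the sources used here. Values without these domains stand in the closing section. The second widest domain (chr11:87747818-87761273, 13456 bp, fold 20.5) overlapped Mir142, Mir142b and Tspoap1. It was 1 peak in dC, dPLD and F-GATA3, covered over 100%, 100% and 92.5% of its bases, and 2 peaks over 50.8% in the empty vector. The miR-142 sequences above lie in the part of this domain that the empty-vector peaks missed.

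The domain over Igll1, Vpreb1 and the topoisomerase gene Top3b (chr16:16860563-16872090, 11528 bp, fold 27.6) was a single peak in dC, dPLD and F-GATA3, over 100%, 94.1% and 99.3% of its bases. In the empty vector 2 peaks of 1203 and 955 bp were left, over 18.7%. EBF1 dC and EBF1 wt each had 3 peaks in it, the highest at folds of 41.3 and 36.5. In A-MuLV cells Brg1 had 6 peaks there with dC and 8 with wt, over 42.6% and 68.4% of its bases.

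The rest of the 15 widest included those named by Grk2 (10259 bp), a kinase of G-protein-coupled receptors, Susd1 (9732 bp), Trp53i11 (9649 bp), Tnrc18 (9579 bp), Cytip (9463 bp), a cytohesin-binding protein of leukocytes, Junb (9105 bp), an AP-1 factor, Bahcc1 (8718 bp), Arid1a (8567 bp) and H2ac8 (8285 bp), a histone H2A gene. Their cover in the empty vector differed widely. Tnrc18 was a single empty-vector peak over 99.7% of the domain, Junb had 71.2% in 3 peaks and Arid1a 66.7% in 2. Grk2 had 39.6%, Susd1 36.8%, Cytip 29.2%, Bahcc1 26.0% and Trp53i11 24.1%, and the H2ac8 domain had none. In dC, dPLD and F-GATA3 each of these domains was covered over at least 71.8% of its bases, the lowest value being Junb in dC.

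**Figure D1:**
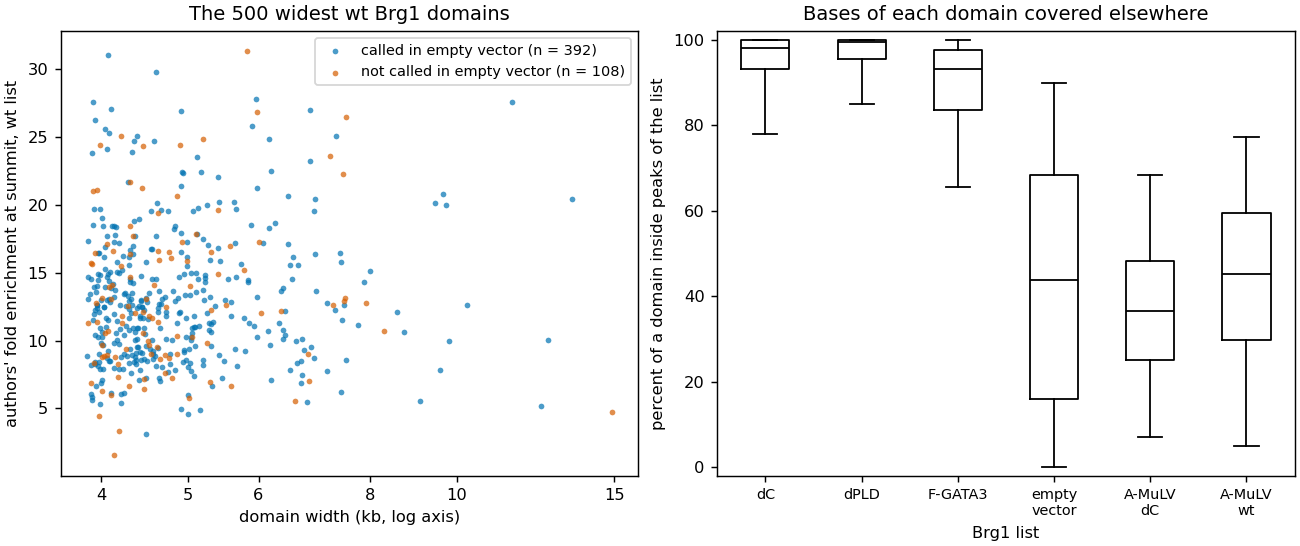
Left, each of the 500 domains by its width (kb, log axis) and the authors' fold enrichment at its summit, coloured by whether the empty-vector list has an overlapping peak. Right, percent of each domain's bases inside peaks of the other Brg1 lists, with boxes for quartiles, a line for the median and whiskers for the 5th and 95th percentiles over 500 domains. The medians are 98.1% in dC, 99.5% in dPLD, 93.1% in F-GATA3, 43.8% in empty vector, 36.5% in A-MuLV dC and 45.2% in A-MuLV wt.

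With each altered EBF1, nearly all domains were called. A dC peak met 499 of the 500, a dPLD peak 499 and an F-GATA3 peak 499, against 83.6%, 83.6% and 77.0% of all wt peaks. In each list 1 domain was not called, against 16.4%, 16.4% and 23.0% of all wt peaks. The peaks covered 94.5%, 96.4% and 88.8% of the domains' bases, against 84.3%, 86.1% and 75.2% of the bases of all wt peaks. A wide interval meets a peak more easily than a narrow one, so the summit was also read. It lay inside a peak for 497 domains with dC, 499 with dPLD and 497 with F-GATA3. Wt peaks outside the 500 were set beside the domains by quartile of the domains' folds. In the second quartile, between 9.36 and 12.5, their summit was inside a peak for 94.2% with dC, 97.4% with dPLD and 97.5% with F-GATA3. All 125 domains in that range had it inside a peak in each of the 3 lists. In the highest quartile the other wt peaks had 98.5%, 99.6% and 100%, against 100% of domains in each list. In the lowest they had 79.0%, 78.0% and 68.7%, against 97.6%, 99.2% and 97.6% of domains. Fold was not fully matched in the lowest, with medians of 8.08 for domains and 6.36 for other wt peaks.

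The widest peak over a domain tended to be wider than the domain with dC and dPLD and narrower with F-GATA3. Peaks picked for width in 1 list tend to be narrower in another, so the F-GATA3 direction cannot be told apart from that choice. Where a domain was split, only its widest piece was counted. The widest overlapping peak had a median of 4865 bp in dC, 4979 bp in dPLD and 4205 bp in F-GATA3, against 4579.5 bp for the domains, and it was wider than the domain in 302, 349 and 139 of the 500 cases. The 1000 bp on either side of the domains were covered to 26.5% with dC, 29.5% with dPLD, 13.7% with F-GATA3 and 3.19% in the empty vector. The wt value, 7.02%, was low by construction, since these stretches begin where the chosen wt peak ends. It is therefore no measure to set the other lists against. Peaks of at least 3859 bp numbered 896 in dC, 950 in dPLD, 423 in F-GATA3, 500 in wt and 45 in the empty vector. The median width of the whole list, in the same order, was 1248, 1325, 1139, 1103 and 978 bp. By that median, F-GATA3 peaks were not narrower than wt peaks.

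Splitting, meaning 2 or more peaks of the other list over 1 domain, was counted in both directions. In dC 59 domains were split (11.8%, 9.11 to 15.0%), in dPLD 42 (8.40%, 6.12 to 11.2%) and in F-GATA3 121 (24.2%, 20.5 to 28.2%), with at most 3, 3 and 5 pieces. Over all wt peaks the shares were 0.835%, 0.729% and 1.54%. In the opposite direction, the 500 widest dC peaks were split in the wt list in 183 cases (36.6%), the 500 widest dPLD peaks in 191 (38.2%) and the 500 widest F-GATA3 peaks in 83 (16.6%). Counted on the 500 domains themselves, 59 met a dC peak that held 2 or more wt peaks. For dPLD the number was 61 and for F-GATA3 32. Beside the 59, 42 and 121 split domains, joining equalled splitting in dC, exceeded it in dPLD and fell short of it in F-GATA3, in these libraries. The 2 directions of the split count differ in width, and a wider interval meets 2 or more peaks more easily. The 500 widest peaks began at 4545 bp in dC, 4668 bp in dPLD and 3713 bp in F-GATA3, against 3859 bp in wt.

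The 3 lists kept many of the same widest places. Of the domains, 310 met 1 of the 500 widest peaks of dC (62.0%), 323 of dPLD (64.6%) and 340 of F-GATA3 (68.0%), 205 met those of all 3 and 69 of none. Split domains included that of Hes1, a Notch target gene (7870 bp), with 4 pieces in F-GATA3 against 1 in dC and 1 in dPLD. The domain on Y nearest Gm52481 (14920 bp) had 5 F-GATA3 pieces, and the domain near Cd79b had 3 dPLD pieces, 2 dC pieces and 1 F-GATA3 peak over all of its bases. The domain over H3f3b, a histone H3.3 gene (4105 bp), had 3 dPLD pieces.

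**Figure D2:**
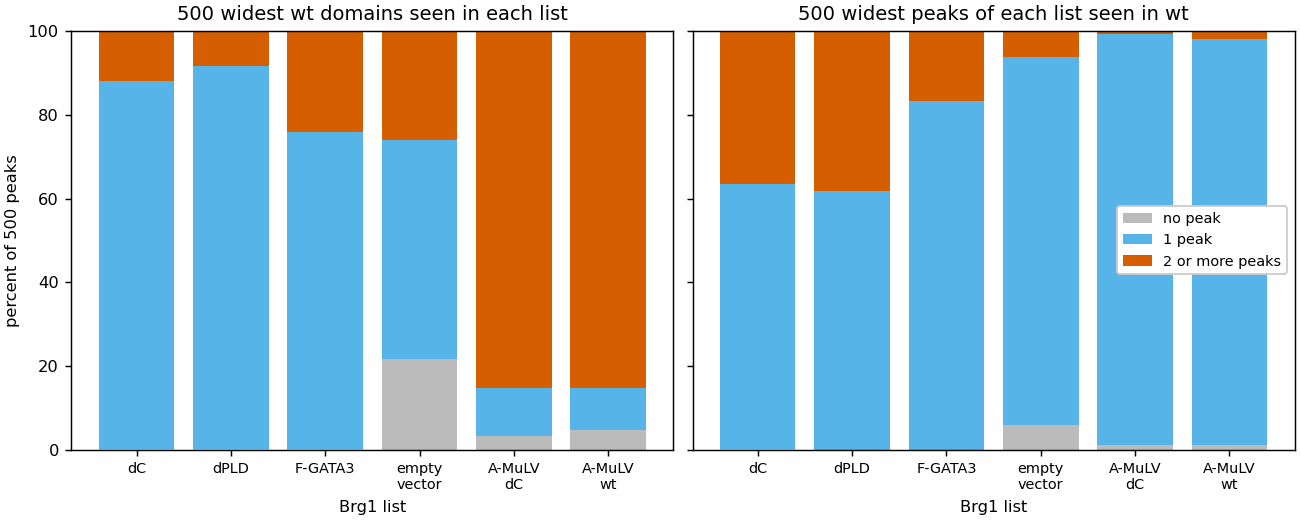
Stacked bars give the percent of 500 peaks with no peak, 1 peak or 2 or more peaks of the other Brg1 list. On the left are the 500 widest wt domains read in each list, and on the right the 500 widest peaks of each list read in the wt list; 11.8% of the domains are split in dC and 36.6% of the widest dC peaks are split in wt.

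Few domains lost most of their cover with an altered EBF1, and these are named after their values were seen. Under 50% of the bases were covered in 5 domains with dC, 2 with dPLD and 7 with F-GATA3. Of all 29354 wt peaks the numbers were 5092, 4986 and 7315. In dC the domains were nearest Dnajb13 (25.2%), Lhpp (27.2%) and Zc3h12d (15.4%), over Ighm (30.0%) and over Rn18s-rs5 (0%). The dPLD cover of the first 3 was 88.0%, 78.4% and 65.0%, and their F-GATA3 cover was 90.8%, 64.2% and 79.6%. In F-GATA3 the 7 domains included those over Ighm (0%) and Rn18s-rs5 (13.8%). They also included those nearest Epha2, an ephrin receptor gene (46.9%), Cradd (44.8%), Nfe2l2, an oxidative stress factor gene (47.2%), and Rsph1 (22.6%). The dC and dPLD cover was at least 92.6% for Epha2, Cradd and Nfe2l2, and 58.8% and 55.8% for Rsph1.

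The immunoglobulin heavy chain locus held 2 domains and the kappa locus none. The Ighm domain (chr12:113416789-113423374, 6586 bp, fold 5.52) covers the gene of the mu constant region and had cover of 30.0% in dC, 30.4% in dPLD, and none in F-GATA3 and the empty vector. The next domain (chr12:113423513-113431022, 7510 bp, fold 8.57) spans Ighj1 to Ighj4, the joining segments, and Ighd4-1. Its cover was 82.0% in dC, 88.5% in dPLD, 87.3% in F-GATA3 and 32.0% in the empty vector, in 3, 2, 2 and 3 pieces. The single domain with no peak in dC, dPLD and empty vector alike was that over Rn18s-rs5, a ribosomal RNA copy (chr17:39843109-39847239), with the lowest fold of all domains, 1.55.

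Without EBF1 the called stretches were shorter and some domains had none. An empty-vector peak met 392 of the 500 (78.4%), against 36.1% of all wt peaks. No peak was found in 108 (21.6%, 18.1 to 25.5%), against 63.9% of all wt peaks, and 2 or 3 peaks in 130 (26.0%, 22.2 to 30.1%), against 1.1% with 2 or more over all wt peaks. Empty-vector peaks covered 42.5% of the domains' bases, against 31.3% of the bases of all wt peaks. No domain was covered in full, and 287 of the 500 were covered under 50%. Of all 29354 wt peaks, which are mostly narrower, 1844 were covered in full and 20349 under 50%. Where a peak was present, the widest piece had a median of 2113 bp, and it was wider than the domain in 5 cases. The domains of Gse1 and Msh5, a meiotic MutS gene, were in 3 empty-vector pieces each, over 74.8% and 74.5%.

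The empty-vector library had narrower peaks throughout, and the reverse count was small. Of its 500 widest peaks, which began at 2534 bp, 29 had no wt peak (5.80%) and 31 were split in wt (6.20%), and wt peaks covered 83.5% of their bases. Of the wt domains, 149 met 1 of them (29.8%). Domains at ubiquitously expressed genes had empty-vector cover of 88.4% (Ywhaz, a 14-3-3 protein gene), 77.1% (Actb) and 76.0% (Tubb5), against a median of 43.8% over the domains.

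Wider wt peaks were more often still called in the empty vector, and a wide interval also meets a peak more easily. By width rank, 21.6% of ranks 1 to 500 had no empty-vector peak, 34.5% of ranks 501 to 2000, 48.9% of ranks 2001 to 8000 and 71.2% of the rest. Read at the summit, which has no such reach, 66.6%, 58.7%, 48.9% and 28.4% were inside an empty-vector peak. Since fold also fell with rank, domains were set beside other wt peaks in the same quartile of the domains' fold. In the highest quartile 67.2% of domains (58.2 to 75.3%) and 54.2% of other wt peaks (51.4 to 57.0%) had the summit inside an empty-vector peak, and in the lowest quartile 59.2% and 27.8%. In the lowest quartile the median fold was 8.08 for domains and 6.36 for the other peaks, so fold was not fully matched there.

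**Figure D3:**
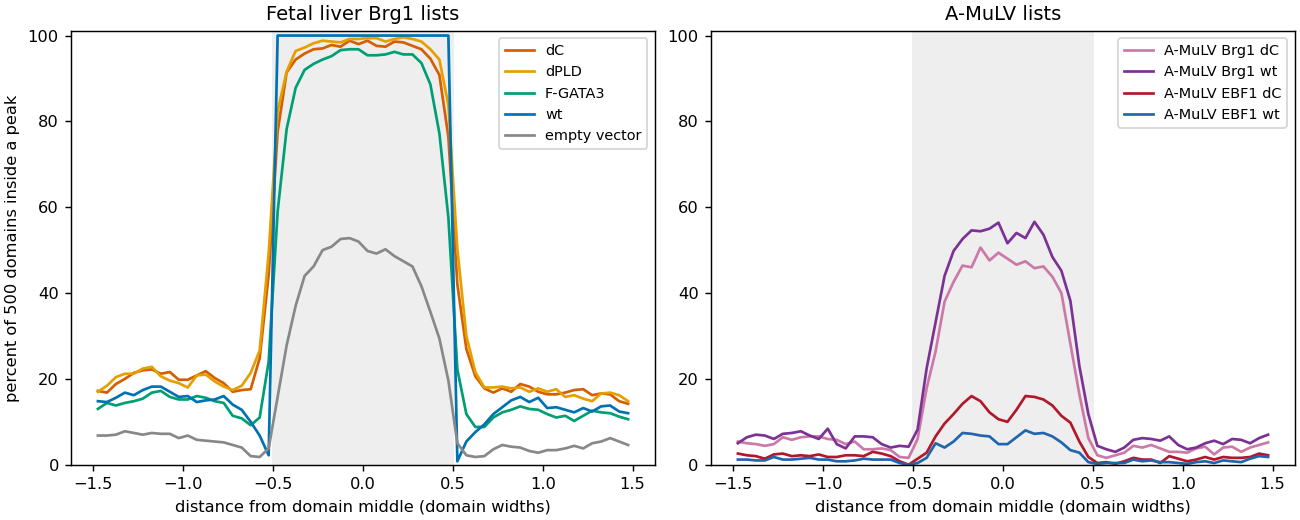
Percent of the 500 domains inside a peak of each list, by distance from the domain's middle in units of its own width; the grey band is the domain. At 0.475 widths to the right of the middle 76.4% are inside a dC peak, 83.8% dPLD, 57.6% F-GATA3 and 19.6% empty vector, and at 0.025 widths 98.8%, 99.4%, 95.4% and 49.8%.

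The 108 domains with no empty-vector peak resembled the other 392 in width and height, with median widths of 4536 and 4602.5 bp and median folds of 12.4 and 12.5. Fewer of them held the start of a protein-coding gene: 38 of 104 (36.5%, 27.3 to 46.6%) against 209 of 382 (54.7%, 49.6 to 59.8%), leaving out chromosome 18, whose starts were not used. An EBF1 wt peak overlapped 51.9% of them (42.0 to 61.6%) and 41.8% of the others (36.9 to 46.9%), intervals that overlap. The altered EBF1 versions covered somewhat less of them, 91.1% against 95.4% of bases in dC, 93.7% against 97.1% in dPLD and 84.2% against 90.1% in F-GATA3.

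After the H2ac8 domain, the widest that lacked an empty-vector peak but were called in dC, dPLD and F-GATA3 lay over Erg (7910 bp), an ETS factor of blood progenitors, 13101 bp from Bcar3 (7510 bp), an adaptor protein, over Cplx2 (7504 bp), a complexin, 18835 bp from Snx5 (7472 bp), a sorting nexin, and near Cd79b (7466 bp). The Bcar3 domain had a fold of 26.5 and 3 F-GATA3 pieces over 68.1% of it, against 97.8% in dC and 100% in dPLD. The domain nearest Snx5 had 100% cover in F-GATA3 and 99.0% in dC. All 3 domains assigned to Bcar3 had no empty-vector peak, F-GATA3 cover of 67.9% to 70.8%, and EBF1 peaks of both forms. Of the domains 21.6% had no empty-vector peak and 43.6% had both EBF1 forms, against 63.9% and 11.7% of all wt peaks.

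The 4 Erg domains were set close together within the gene. Their widths were 7910, 5047, 4214 and 4100 bp. No empty-vector peak met 3 of them, against 21.6% of the domains and 63.9% of all wt peaks. The 1 called there, of 5047 bp, was covered over 22.3%. In dC, dPLD and F-GATA3 all 4 were covered over at least 81.5%. The domain with the highest fold, 25.1, held 2 EBF1 dC and 2 EBF1 wt peaks. The other 3 held none, as did 36.2% of the domains and 77.6% of all wt peaks. Erg was chosen here after its count of domains was seen, as were Bcar3, Irf2bp2, a corepressor gene, and Ptma, the prothymosin alpha gene. At Irf2bp2 and Ptma each domain had an empty-vector peak, covering 31.0% to 46.1% at Irf2bp2 and 15.9% to 78.8% at Ptma. Of the domains 78.4% had such a peak, and of all wt peaks 36.1%.

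Of the 10 B-lineage domains, 6 had no empty-vector peak, among them those at Cd79b, Pou2af1, Lef1, Cd24a and Pax5, against 21.6% of the domains and 63.9% of all wt peaks. The empty-vector cover of the others was 18.7% at Igll1 and Vpreb1, 22.0% at Ikzf1, 42.5% at Tcf3 and 65.5% at Bach2. In dC the cover of the 10 ran between 74.7% (Cd79b) and 100%, in dPLD between 94.1% (Igll1 and Vpreb1) and 100%, and in F-GATA3 between 82.8% (Tcf3) and 100%. All 10 were thus called with dC, dPLD and F-GATA3, as were 499 of the 500 domains in each of these lists. Over all wt peaks the shares called were 83.6%, 83.6% and 77.0%. EBF1 wt peaks lay in 6 of them, against 44.0% of the domains and 13.4% of all wt peaks, and the domains at Lef1, Pax5, Tcf3 and Bach2 had no EBF1 peak of either form.

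The Pou2af1 domain (chr9:51210555-51216383, 5829 bp) had the highest fold of all 500, 31.3. The highest overlapping fold was 25.4 with dC, 25.5 with dPLD and 21.3 with F-GATA3, each the authors' value in its own list. A single EBF1 peak lay in it in each form, at a fold of 28.2 in dC and 21.2 in wt. The Pax5 domain (chr4:44710291-44714798, 4508 bp, fold 9.94) holds the Pax5 start whose promoter is printed above, and its cover was 97.6% with dC, 100% with dPLD and 99.9% with F-GATA3.

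The domain near Cd79b (chr11:106303707-106311172, fold 22.3), whose nearest gene interval is that of Gh, the growth hormone gene, met 2 dC peaks of 1954 and 3626 bp and 3 dPLD peaks of 1619, 2858 and 3949 bp. In F-GATA3 it was 1 peak of 8689 bp. EBF1 had 2 peaks in it in each form. It met 1 of the 500 widest peaks of F-GATA3 and none of those of dC or dPLD. Of the 10, 5 met the 500 widest of all 3 versions and 2, Tcf3 and Bach2, those of the empty vector.

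**Figure D4:**
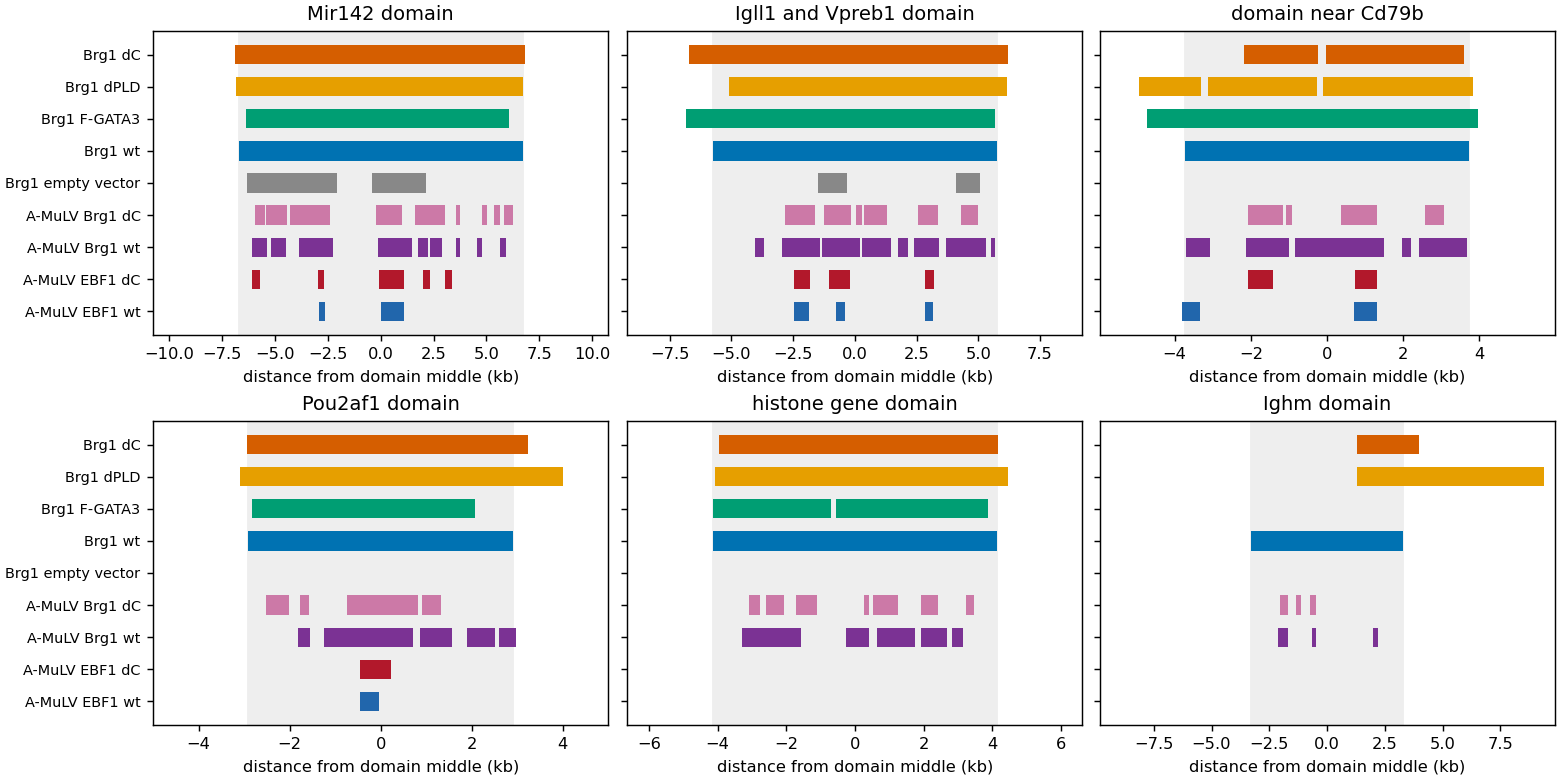
Peaks of each list over 6 domains, as bars by distance from the domain's middle in kb, with the domain in grey; the Mir142, Igll1 and Vpreb1, and histone panels show domains among the 15 widest. In the Igll1 and Vpreb1 panel the empty vector has 2 short bars over 18.7% of the domain, and in the Ighm panel F-GATA3 and the empty vector have none.

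Of the 5 BAF and PBAF genes, Smarca4, which encodes Brg1 itself, had a domain of 4932 bp (fold 17.2) covered over 94.1% with dC, 94.1% with dPLD and 98.0% with F-GATA3, and not called in the empty vector. Smarca2, which encodes the alternative motor subunit, had one of 3931 bp, covered over 100%, 100% and 75.9% and also not called in the empty vector. Of the domains 21.6%, and of all wt peaks 63.9%, had no empty-vector peak. The domains at Arid1a, Arid2 and Arid1b, genes of large DNA-binding subunits, were covered over 66.7%, 67.2% and 46.9% in the empty vector. The Smarca4 domain held 1 EBF1 peak of each form, and 43.6% of the domains and 11.7% of all wt peaks had peaks of both forms.

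In A-MuLV cells the domains were found as strings of short peaks. A peak was present in 484 domains with dC (96.8%) and 477 with wt (95.4%), against 51.1% and 49.7% of all wt peaks. None was present in 16 with dC and 23 with wt, against 48.9% and 50.3% of all wt peaks. With dC 427 domains were split (85.4%) and with wt 426 (85.2%), against 14.0% and 13.7% of all wt peaks, with up to 9 pieces in each library. The pieces covered 37.1% of the bases with dC and 43.6% with wt. The 500 widest A-MuLV peaks lay almost wholly inside fetal liver wt peaks, over 97.1% of their bases for dC and 95.7% for wt. Peak width differs between the cell systems in all of these lists, so splitting in A-MuLV cells is a property of the lists and cannot be told apart from the cells or the protocol.

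A peak of at least 1 EBF1 form in A-MuLV cells lay in 319 of the 500 domains (63.8%), against 22.4% of all wt peaks. EBF1 dC had a peak in 317 (63.4%, 59.0 to 67.6%) and EBF1 wt in 220 (44.0%, 39.6 to 48.5%), while over all wt peaks the shares were 20.7% and 13.4%. No EBF1 dC peak lay in 183 domains and no EBF1 wt peak in 280, against 79.3% and 86.6% of all wt peaks. At least 2 EBF1 dC peaks lay in 122 domains (24.4%) and at least 2 EBF1 wt peaks in 65 (13.0%), against 1.29% and 0.627% of all wt peaks. Both forms had a peak in 218 domains, dC alone in 99, wt alone in 2 and neither in 181. In the same order, the shares of all wt peaks were 11.7%, 9.004%, 1.63% and 77.6%, so wt alone was the rarest class there too. Per length the domains stood nearer the rest: 18.7 EBF1 dC and 11.6 EBF1 wt peaks per 100 kb of domain, against 16.9 and 10.7 per 100 kb of all wt peaks. The EBF1 dC list was the longer, with 11147 peaks against 6155 in wt.

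At the Brg1 summit, domains of higher fold more often had EBF1. By rising quartile of fold, 10.4%, 12.0%, 28.8% and 39.2% of the domain summits were inside an EBF1 wt peak, against 7.36%, 14.4%, 22.7% and 31.9% of the summits of other wt peaks in the same ranges. The intervals of domains and other peaks overlapped in each quartile. For EBF1 dC the shares were 19.2%, 35.2%, 44.8% and 53.6% in domains against 11.5%, 22.1%, 32.2% and 42.2% in other wt peaks. The intervals were apart in the lower 3 quartiles. In the lowest, fold was not fully matched, with medians of 8.08 for domains and 6.36 for other wt peaks. Of the 293 EBF1 wt summits in domains 44.0% lay within 500 bp of the Brg1 summit, and of the 469 EBF1 dC summits 43.7%.

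Zfp36, the gene of an mRNA decay factor, had the domain with the most EBF1 wt peaks, 5, with 3 of EBF1 dC (6926 bp). The domain over Brd2, a BET bromodomain gene, and those 13057 bp from Chst3, a sulfotransferase gene, and 17749 bp from Scd1, a fatty acid desaturase gene, had 3 EBF1 wt peaks each, like that of Igll1 and Vpreb1. After Pou2af1, the highest folds were those of the domains nearest Chst3 (31.0) and Tbc1d16 (29.7), over Pygm (27.8) and over Igll1 and Vpreb1 (27.6). Next came the domain nearest Lyn (27.5), a Src-family kinase gene 28921 bp away. The Chst3, Tbc1d16 and Pygm domains held 3, 2 and 2 EBF1 wt peaks and had empty-vector cover of 42.8%, 39.8% and 46.6%. The Lyn domain held no EBF1 peak of either form and had empty-vector cover of 99.1%.

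Inside the domains, the share of points inside an empty-vector peak differed between kinds of point. Starts of coding genes were inside an empty-vector peak in 246 of 386 cases (63.7%, 58.7 to 68.5%), and EBF1 wt summits in 127 of 293 (43.3%, 37.6 to 49.2%), beside 42.5% of all bases. EBF1 dC summits were inside one in 234 of 469 (49.9%, 45.3 to 54.5%). The interval for EBF1 wt summits includes the share of bases, and those for EBF1 dC summits and for starts lie above it. The share of bases is not matched for position, however. An empty-vector peak covered 49.8% of domains at 0.025 widths right of the middle and 19.6% at 0.475 widths. Of EBF1 wt summits 64.8%, and of EBF1 dC summits 63.5%, lay in the middle 50% of their domain. Whether EBF1 summits differ from other bases at the same position was not tested. With dC, dPLD and F-GATA3 the EBF1 wt summits were covered at 97.6%, 100% and 99.0% and the starts at 99.0%, 98.7% and 96.4%. In A-MuLV cells, Brg1 covered 84.0% of EBF1 wt summits with dC (79.2 to 88.0%) and 93.9% with wt (90.5 to 96.3%), and 68.7% and 75.4% of the starts. EBF1 and A-MuLV Brg1 came from the same cell system, unlike EBF1 and fetal liver Brg1.

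**Figure D5:**
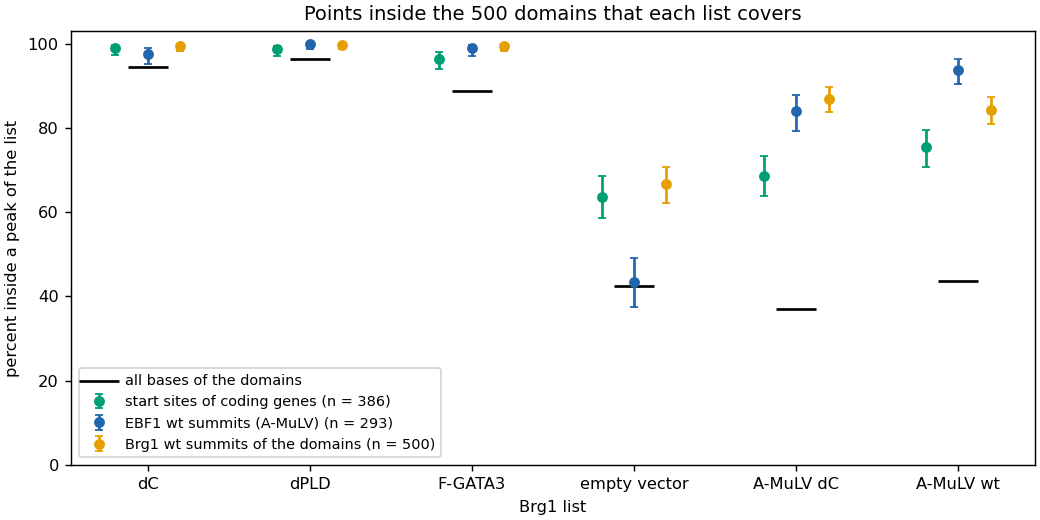
Percent of points inside the domains that lie in a peak of each Brg1 list, for coding start sites (n = 386), EBF1 wt summits (n = 293) and the domains' own summits (n = 500), with exact 95% intervals; black bars give the percent of all bases. In the empty vector 63.7% of starts and 43.3% of EBF1 wt summits are covered, against 42.5% of bases.

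A coding start lay in 247 of 486 domains off chromosome 18 (50.8%, 46.3 to 55.4%), against 26.4% of all wt peaks. Per length, starts were sparser in domains, with 15.7 per 100 kb against 25.6 in all wt peaks. In 41 domains starts of 2 or more genes were present. In the 206 domains with a single such gene the domain reached a median of 2117 bp upstream and 2682.5 bp downstream of its start. It extended farther downstream in 59.7% of them (52.7 to 66.5%), against 66.6% of other wt peaks (65.4 to 67.7%).

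The promoters in domains were compared by letters. The EBF1 core CCCNNGGG, which reads the same on both strands, was present in 86 of 386 (22.3%, 18.2 to 26.8%), against 18.8% of the promoters in any wt peak and 15.6% of all 21263 promoters in the table. The ETS core GGAAGT, searched on both strands and able to share its end bases with an EBF1 core, was present in 19.4% (15.6 to 23.7%), against 30.9% and 24.8%. The median number of CpG dinucleotides in the 300 bases was 22, against 23 and 13. Several starts of 1 gene share bases, so these promoters are not independent, and no test was made.

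Histone genes filled a group of domains, and were looked up after the H2ac8 domain had been seen. Of 57 genes named H2ac, H2bc, H3c and H4c, which encode the histones made in S phase, 35 lay in 13 domains on chromosomes 13 and 3 (61.4%) and 55 in some wt peak (96.5%), against 2.08% and 54.8% of all coding genes. The widest of these domains (chr13:23569648-23577932, 8285 bp) holds the starts of H2ac7, H2ac8, H2bc7, H2bc8 and H3c4. It was covered over 97.6% with dC, 99.2% with dPLD and 95.1% with F-GATA3. Of the 13 domains, 5 had no empty-vector peak, against 21.6% of the domains and 63.9% of all wt peaks, and 3 had an EBF1 wt peak, against 44.0% and 13.4%. The genes stand side by side, so they share domains and are not separate cases.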

How the data were processed

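Brg1 and EBF1 ChIP-seq peak lists of 9 libraries were used; the 5 inputs came without peak lists. The submitters' processing notes name MACS2 2.1.2, Bowtie2 2.3.3.1, deepTools 3.3.1 and SAMtools 1.9, and the build GRCm38. Nothing in the sources used here gives the threshold, the treatment of duplicates or the input behind each call. In the deposited lists the fold is the ratio of pileup to background at the summit, the authors' −log10 p and −log10 q belong to the same summit, and the score deposited with each peak equals the −log10 q multiplied by 10. These meanings come from the peak format and were checked on the values. Intervals on unplaced scaffolds were left out and identical intervals were counted once. A domain counted as called when it shared 1 bp with a peak of another list, and as split when it met 2 or more.

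Shares carry exact Clopper-Pearson 95% intervals (scipy 1.17.1, with Python 3.11.15 and pandas 2.3.3), with the same share over all wt peaks beside them. The overlap code was tested on simulated intervals. Genes, starts and sequences came from RefSeq tables for GRCm38.p6; 21263 coding starts were used, with none on chromosome 18. A domain is named by the protein-coding gene that holds its summit, otherwise by the nearest. The text names the 15 widest domains and then, among the others, the widest 5 not called in the empty vector but in dC, dPLD and F-GATA3, those not called in at least 1 of these 3, the 3 with the most pieces per fetal liver list, the 5 with the most EBF1 wt peaks, the 5 of highest fold, the 3 narrowest, the 3 peaks just below, and every domain within 10 kb of a B-lineage gene. Other domains were named after their values were seen, and the text says so or names them as gene list members. The members and the 9 gene lists (139 members) were chosen with earlier results of these data known. Settings varied were a −log10 q minimum of 20, fetal liver lists of equal length, other overlap rules, 250 or 1000 domains and other gene windows. A few gene names are not reported here.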

Additional observations from a re-analysis of the deposited data

How the results depend on the processing

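No paired analysis was possible because each group had 1 library. A value is given here where an alternative moved a share of domains out of its 95% interval, a share of bases out of the interval that the same share of 500 domains would have, or a gene count by over 1.5 times. With peaks of the other list kept only at a −log10 q of at least 20, domains not called were 2.40% in dC, 1.80% in dPLD, 4.00% in F-GATA3, 62.0% in empty vector, 74.6% in A-MuLV dC and 70.0% in A-MuLV wt. Split domains were then 7.80%, 5.20%, 13.0%, 2.40%, 2.80% and 3.20% in that order. Bases covered were 94.3% in dPLD, 83.1% in F-GATA3, 18.4% in empty vector, 7.57% in A-MuLV dC and 10.8% in A-MuLV wt, and domains with EBF1 were 48.2% for dC and 33.2% for wt. The fewer peaks kept account for these shifts by construction. With fetal liver lists of equal length, domains not called were 2.60% (dC), 1.40% (dPLD) and 1.40% (F-GATA3), split domains 7.20%, 5.80% and 17.0%, and bases covered in dC 91.8%. With 50% overlap, 9% were split in dC. When the domain's summit had to be covered, 33.4% were not called in empty vector, 13.0% in A-MuLV dC and 15.6% in A-MuLV wt. With the 250 widest domains, domains not called were 0% in dC, 0% in dPLD and 2.80% in A-MuLV wt, split domains 30.8% in F-GATA3, 35.6% in empty vector, 90.4% in A-MuLV dC and 91.2% in A-MuLV wt, and domains with EBF1 68.8% for dC and 50.0% for wt. With the 1000 widest, 5.20% were not called in A-MuLV dC, 19.6% were split in F-GATA3, 18.0% in empty vector, 77.1% in A-MuLV dC and 79.0% in A-MuLV wt, and 57.9% had EBF1 dC and 38.7% EBF1 wt. Genes at a domain became 7 B-lineage, 3 BAF and 1 ubiquitously expressed with the 250 widest, 1 T-lineage, 1 myeloid and 4 progenitor with the 1000 widest, and 1 T-lineage, 3 myeloid and 8 BAF within 50 kb. All coding genes at a domain numbered 337 (1.54%), 1211 (5.53%) and 1274 (5.82%) in these 3 settings, against 631 (2.88%) with the 500 widest and 10 kb. Leaving out the 3 domains at the ends of X and Y and that over Rn18s-rs5, chosen after seeing the data, made domains not called 0% in dC and 0% in dPLD. The order in which F-GATA3 split more domains than dC and dPLD was kept in each of these settings that was run. Depth is unknown, which limits any statement on absence.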

Other observations

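Of 408 tRNA genes in the RefSeq table, 21 lay in 6 domains of 4012 to 6798 bp (5.15%) and 203 in some wt peak (49.8%), against 2.08% and 54.8% of all coding genes. None of the 6 domains held an EBF1 wt peak, 1 had no empty-vector peak and 2 were split in F-GATA3, against 44.0%, 21.6% and 24.2% of the domains and 13.4%, 63.9% and 1.54% of all wt peaks. Beyond Mir142 and Mir142b, 6 miRNA hairpins lay in domains, out of 1005 in the table used here, and 92 lay in some wt peak. These genes were looked up after the widest domains had been seen.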
